A study of Mus musculus with 6 samples.

Results

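Myocardin, its DNA-binding partner Srf and 7 further transcription factors of smooth muscle and lung mesenchyme were followed across whole lungs of IL-13-treated mice of 3 genotypes. The members were every probe set that the platform annotation assigns to Myocd, Srf, Mef2a, Mef2c, Klf4, Gata6, Foxf1, Tbx4 or Tbx5, which gave 26 probe sets of 9 genes among 45037 probe sets that are no array controls. Each of the 26 carries a single gene symbol. RNA from whole lungs of adult BALB/c mice was hybridised to 6 Affymetrix mouse arrays. The groups were IL4R KO + SMP8-IL4R (IL4R -/-, with a +/- SMP8-IL4R transgene that expresses the receptor from a promoter active in smooth muscle, here also called transgenic), IL4R KO (IL4R -/- with no transgene, here also called knockout) and WT (IL4R +/+ with no transgene). Every group had 2 arrays, each from an RNA pool of 4 mice, and every mouse had received 2 to 3 µg of IL-13 into the trachea daily for 7 days, with lungs taken 24 hours after the last dose. No lung without IL-13 is part of the comparisons, so each difference below is between genotypes under IL-13.

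Serum response factor, encoded by Srf, binds a short sequence called the CArG box in front of both contractile and growth-response genes. Myocardin attaches to it and drives the contractile genes of smooth and cardiac muscle, while other cofactors steer it toward immediate early genes. Mef2 proteins belong to the same MADS-box family as Srf, Klf4 represses smooth muscle genes and antagonises myocardin, and Gata6 is linked to the differentiated smooth muscle state. Foxf1, Tbx4 and Tbx5 are developmental regulators of lung mesenchyme.

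Myocd was the only member that passed as lower in knockout lungs than in WT lungs, and Srf lay at nearly the same level in all lungs. By the brighter Myocd probe set, 1425978_at, knockout lungs were 2.04-fold lower than WT lungs, and transgenic lungs did not differ from WT beyond the spread between pools. Of the 26 probe sets, this 1 passed the test in IL4R KO minus WT, and none passed in the other comparisons. Of all 45037 probe sets, 710 passed in IL4R KO minus WT, 7 in IL4R KO + SMP8-IL4R minus IL4R KO and 470 in IL4R KO + SMP8-IL4R minus WT. The other 24 probe sets, of 8 genes, differed by at most 0.40 on the log2 scale between any pair of groups. All values are log2 values as deposited, where 1 unit is a doubling of signal, and levels are not compared between probe sets.

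**Figure D1:**
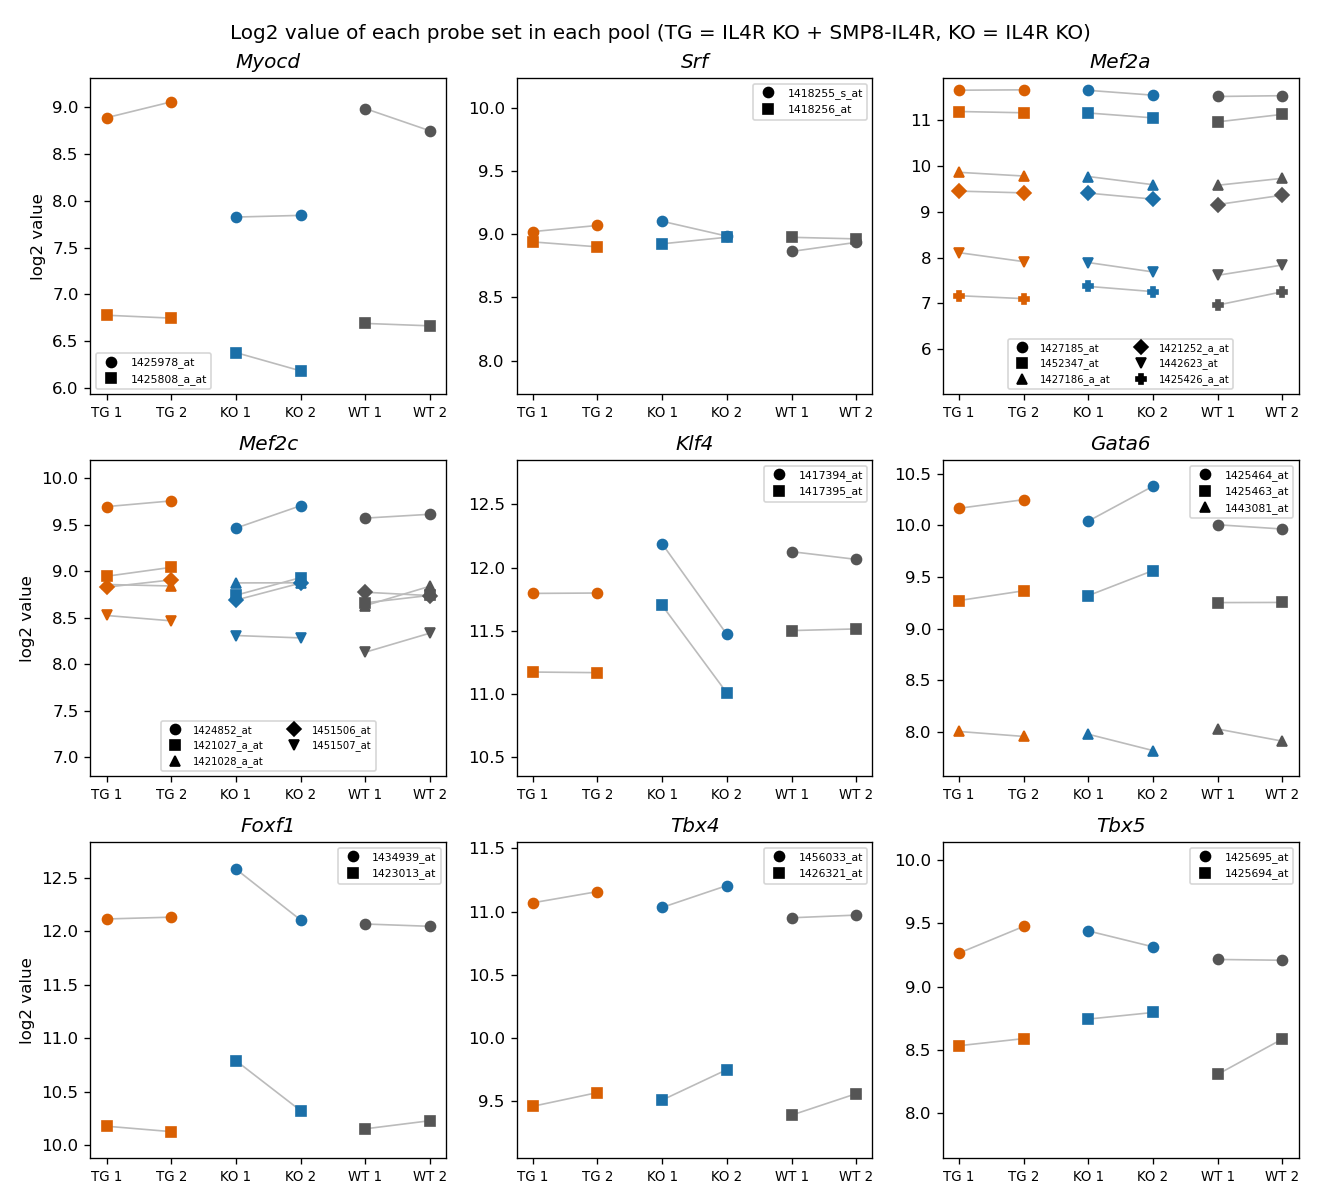
Log2 value (vertical axis, range differs between panels) of each of the 26 probe sets in each pool (horizontal axis), with 1 panel a gene, 1 marker shape a probe set, colour for genotype and lines joining the 2 pools of a group. Both Myocd probe sets are lowest in the IL4R KO pools, Srf stays between 8.86 and 9.10, and Klf4 and Foxf1 are higher in IL4R KO pool 1 than in IL4R KO pool 2.

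Some arrays stood apart from their partner pool. Albumin (Alb), a liver transcript, was at 12.26 in knockout pool 1 and 11.81 in WT pool 2, against 5.68 to 5.93 in the other 4 arrays. The brighter probe set of the Y-linked Eif2s3y was at 4.27 in knockout pool 2 and at 8.49 or above elsewhere, and the dimmer one was between 3.38 and 4.61 in all arrays. The female-specific Xist RNA was at 3.99 in knockout pool 1 and between 8.77 and 10.66 elsewhere by 1 of its 3 probe sets. The other probe sets had the same order of knockout pools. The knockout pools thus differed in sex-linked transcripts as well as in liver transcripts, and the part of either in differences between these pools was not tested. The SD across probe sets of the difference between pools was 0.161 for the transgenic group, 0.308 for the knockout group and 0.209 for the WT group. Where the 3 Il4ra probe sets lie relative to the deletion was not established, and they give no check of the genotypes. The brightest was at 9.98 and 9.84 in the transgenic pools, 9.35 and 9.55 in the knockout pools, and 9.64 and 9.81 in the WT pools. The next was at 8.94 and 8.80 in the transgenic pools, 8.92 and 8.93 in the knockout pools, and 9.23 and 9.29 in the WT pools, so the transgenic and knockout pools were level and below WT there. The dimmest lay between 6.73 and 7.14 in all pools with overlapping knockout and WT ranges. In whole lung, fewer cells of a type and less RNA per cell cannot be told apart.

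The brighter Myocd probe set was at 8.88 and 9.05 in the transgenic pools, 7.82 and 7.84 in the knockout pools, and 8.98 and 8.74 in the WT pools. Both knockout pools lay below all 4 other pools, and the transgenic and WT ranges overlapped. IL4R KO + SMP8-IL4R minus IL4R KO was 1.13 ± 0.11 (SE, n = 2 each), a ratio of 2.19, with a 95% interval of 0.88 to 1.39. It did not pass over all probe sets (limma, adjusted p = 0.0728), where it ranked 11 of 45037 by p. It passed when probe sets with a mean below the median of all values were left out (adjusted p = 0.0495), with 1 probe set a gene (adjusted p = 0.0424) and with a robust intensity trend (adjusted p = 0.0155). Among all probe sets, 0.0155% were higher and 0% lower in this comparison, and with 1 probe set a gene 0.0759% of genes were higher.

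IL4R KO minus WT was -1.03 ± 0.11 for the same probe set, with a 95% interval of -1.28 to -0.78, and it passed (limma, adjusted p = 0.00771). Here 0.577% of all probe sets were higher and 0.999% lower. Without WT pool 1 the difference was -0.91 and no longer passed (adjusted p = 0.0734). Without both arrays that hold liver transcripts it was -1.14, a value from 1 knockout and 1 WT array, whose spread could come from the transgenic pools alone. Wherever leaving out a pool left 1 array in a group, that array was assumed to vary like the other groups. IL4R KO + SMP8-IL4R minus WT was 0.11 ± 0.11 with an interval of -0.15 to 0.36 (adjusted p = 0.675), in a comparison where 0.273% of all probe sets were higher and 0.77% lower. The first 2 comparisons use the same knockout arrays, so their values of 1.13 and -1.03 are not independent of each other.

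The dimmer Myocd probe set, 1425808_a_at, had the same order of group means with smaller differences, and its values lay below the median of all values. It was at 6.78 and 6.75 in the transgenic pools, 6.38 and 6.19 in the knockout pools, and 6.69 and 6.67 in the WT pools. Both knockout pools again lay below all others. The difference in IL4R KO + SMP8-IL4R minus IL4R KO was 0.48 ± 0.09 (adjusted p = 0.256) and IL4R KO minus WT was -0.40 ± 0.09 (adjusted p = 0.102), so neither passed. Without knockout pool 1 the second was -0.49 (adjusted p = 0.0447), which rests on knockout pool 2 alone with the spread of the other groups. Which myocardin transcripts each probe set reads was not established.

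Myocardin also acts in cardiac muscle, which mouse lung holds in the walls of pulmonary veins. All 12 cardiac markers were measured, and none had a mean under the lower quartile of the table. Their summed signal, as log2, was 14.2 and 14.3 in the transgenic pools, 14.8 and 14.5 in the knockout pools, and 14.0 and 13.9 in the WT pools. Over all probe sets, 0.577% were higher and 0.999% lower in IL4R KO minus WT. There 5 of the 12 rose, among them the atrial light chain Myl7 by 0.88 and the troponin Tnni3 by 1.03, and none fell. None of the 12 passed in IL4R KO + SMP8-IL4R minus IL4R KO, where 0.0155% of all probe sets were higher and 0% lower. Their median difference there was -0.36. The largest was that of the atrial peptide Nppa, -2.35 (limma, adjusted p = 0.0813), and only Actc1 lay above 0, at 0.15. The markers did not move as one, as Nkx2-5 differed by -0.09 and Actc1 by 0.15 in IL4R KO minus WT. In IL4R KO + SMP8-IL4R minus WT Myl7 rose by 0.54 and Nppa fell by 1.55, beside 0.273% of all probe sets higher and 0.77% lower. The 8 smooth muscle markers were all measured, with none under the lower quartile. Their summed signals were 14.8 and 14.8 in the transgenic pools, 14.1 and 14.2 in the knockout pools, and 14.6 and 14.6 in the WT pools. Of the 8, 4 fell in IL4R KO minus WT. All 8 are also among the 20 target genes of myocardin and Srf described below, so these are not separate results. The adipocyte list, with 4 of 6 genes measured and 1 of these under the lower quartile, had summed signals of 9.52 and 9.6 in the transgenic pools, 10.7 and 10.9 in the knockout pools, and 8.91 and 9.14 in the WT pools. The part of these cell types in the Myocd difference was not tested.

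Srf, the partner through which myocardin reaches DNA, was at 9.02 and 9.07 in the transgenic pools, 9.10 and 8.99 in the knockout pools, and 8.86 and 8.94 in the WT pools by probe set 1418255_s_at. Probe set 1418256_at gave 8.94 and 8.90 in the transgenic pools, 8.92 and 8.98 in the knockout pools, and 8.98 and 8.96 in the WT pools. The whole range of either probe set over the 6 arrays was smaller than the Myocd difference. In IL4R KO + SMP8-IL4R minus IL4R KO they differed by 0.00 (interval -0.19 to 0.19, adjusted p = 0.997) and -0.03 (interval -0.20 to 0.14, adjusted p = 0.897). The intervals of IL4R KO minus WT were -0.05 to 0.34 and -0.19 to 0.15, and those of IL4R KO + SMP8-IL4R minus WT were -0.05 to 0.34 and -0.22 to 0.12.

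**Figure D2:**
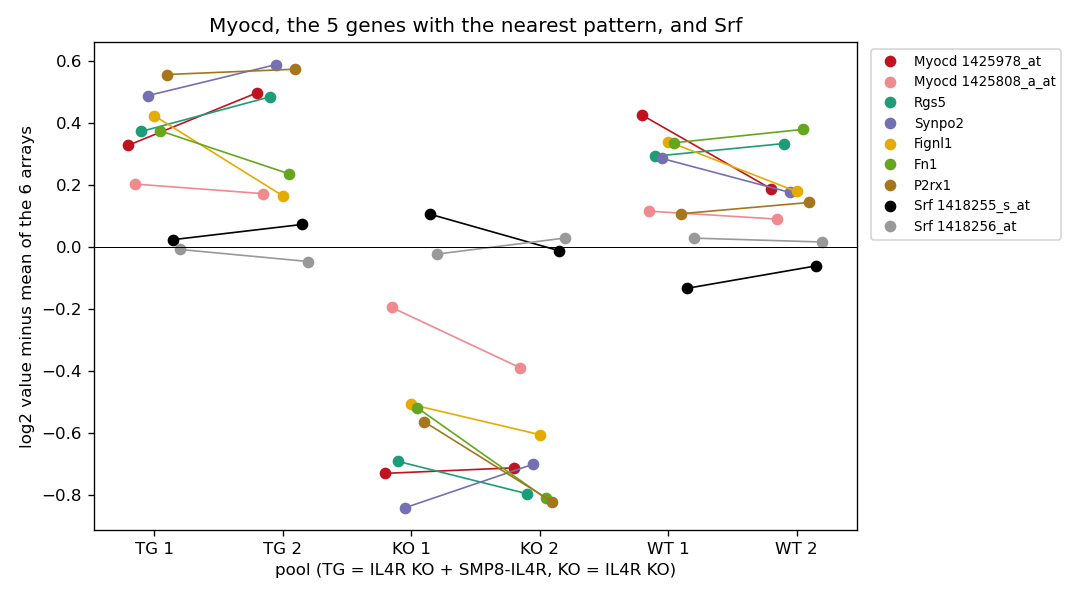
Log2 value minus the mean of the 6 arrays (vertical axis) in each pool (horizontal axis) for both Myocd probe sets, the 5 genes nearest to the brighter one and both Srf probe sets, with lines joining the pools of a group. Myocd and the 5 nearest genes lie below 0 in both IL4R KO pools and above 0 in the other 4, and Srf stays close to 0.

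The CArG box that Srf binds is shown here in the promoter of Srf itself, and in that of Myl9, the regulatory light chain of smooth muscle myosin, which fell in knockout lungs. The RefSeq promoter table (GRCm38.p6) was matched by symbol for 5 of the 9 members, Srf, Mef2a, Mef2c, Klf4 and Tbx4. The 250 bases before the start site are printed 5′ to 3′ on the gene's strand with CArG boxes in capitals, Srf at chr17:46556163-46556412 on the minus strand and Myl9 at chr2:156775214-156775463 on the plus strand.
Srf: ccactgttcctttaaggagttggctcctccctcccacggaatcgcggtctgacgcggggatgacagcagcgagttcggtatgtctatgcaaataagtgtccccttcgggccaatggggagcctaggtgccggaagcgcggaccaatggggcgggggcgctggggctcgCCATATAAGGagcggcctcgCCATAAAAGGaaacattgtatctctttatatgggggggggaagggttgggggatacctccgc
Myl9: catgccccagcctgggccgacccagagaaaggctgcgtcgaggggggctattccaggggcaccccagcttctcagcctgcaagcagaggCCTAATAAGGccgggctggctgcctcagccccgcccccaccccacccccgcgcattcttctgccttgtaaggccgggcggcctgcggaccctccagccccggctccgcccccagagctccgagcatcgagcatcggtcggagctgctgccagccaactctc
The Srf window held 2 boxes, starting 82 and 62 bases before the start site, and the Myl9 window held 1, at 161 bases. Both strands were searched, and a CArG box reads as a CArG box on either strand. Of 32851 promoter windows of this length, 1.47% held a box. Of the 7 windows of member genes 1 held it, and of 19 windows of 17 smooth muscle target genes 2 did (Vcl and Myl9). Vcl passed in no comparison. The target genes Actg2, Tagln and Myh11 had no window. Only the strict form was counted, 10 bases that open with CC, close with GG and hold only A or T between. Looser forms of the box were not searched, so a window without a hit is not shown to lack one.

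Contractile genes that myocardin and Srf are known to drive were lower in knockout lungs than in WT lungs in 7 cases. Of 20 such genes, all measured, Actg2 and Synpo2 were higher in IL4R KO + SMP8-IL4R than in IL4R KO, and none passed as lower. Those that fell in IL4R KO minus WT were Acta2, Actg2, Tagln, Myh11, Synpo2, Tpm2 and Myl9, and none rose. Over all probe sets, 0.0155% were higher in the first of these comparisons, and 0.999% were lower and 0.577% higher in the second. The median difference of the 20 was 0.34 in IL4R KO + SMP8-IL4R minus IL4R KO and -0.22 in IL4R KO minus WT, beside medians over all probe sets of -0.01 and 0.00. In IL4R KO + SMP8-IL4R minus WT 1 rose, Actg2, and none fell, beside 0.273% of all probe sets higher, and the median was 0.18. Earlier results of these data had already shown smooth muscle genes to differ, so the list is not independent evidence of its direction.

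Gamma smooth muscle actin, Actg2, was at 11.38 and 11.39 in the transgenic pools, 9.88 and 9.93 in the knockout pools, and 10.89 and 10.95 in the WT pools. The 3 groups did not overlap, with the transgenic pools highest. It differed by 1.48 in IL4R KO + SMP8-IL4R minus IL4R KO (adjusted p = 0.0127), by -1.02 in IL4R KO minus WT (adjusted p = 0.00188) and by 0.47 in IL4R KO + SMP8-IL4R minus WT (adjusted p = 0.0457). The heavy chain of smooth muscle myosin, Myh11, was at 11.38 and 11.50 in the transgenic pools, 10.71 and 10.75 in the knockout pools, and 11.38 and 11.27 in the WT pools. It fell by 0.59 in IL4R KO minus WT (adjusted p = 0.0263), and its difference of 0.71 in IL4R KO + SMP8-IL4R minus IL4R KO did not pass (adjusted p = 0.112). The dimmer Myh11 probe set gave 0.05 in IL4R KO minus WT. Myl9 was at 12.09 and 12.07 in the transgenic pools, 11.35 and 11.52 in the knockout pools, and 11.91 and 11.94 in the WT pools, and it fell by 0.49 in IL4R KO minus WT (adjusted p = 0.0485).

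The count of 7 target genes that fell depended on the arrays and on the model. It was 3 with knockout pool 1 left out and 8 with knockout pool 2 left out. It was 1 with WT pool 1 left out, and 2 with WT pool 2, with either transgenic pool or with both arrays that hold liver transcripts left out. It was 2 with only the 4 arrays compared, 3 with the median of a gene's probe sets, 5 with each array centred on its median and 8 with a robust intensity trend. The 2 target genes higher in IL4R KO + SMP8-IL4R than in IL4R KO became 0 when any single transgenic or WT pool was left out, 4 without knockout pool 2 and 1 without both arrays that hold liver transcripts. The call of Actg2 in IL4R KO + SMP8-IL4R minus WT was lost when any single transgenic or WT pool, or both arrays that hold liver transcripts, were left out.

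**Figure D3:**
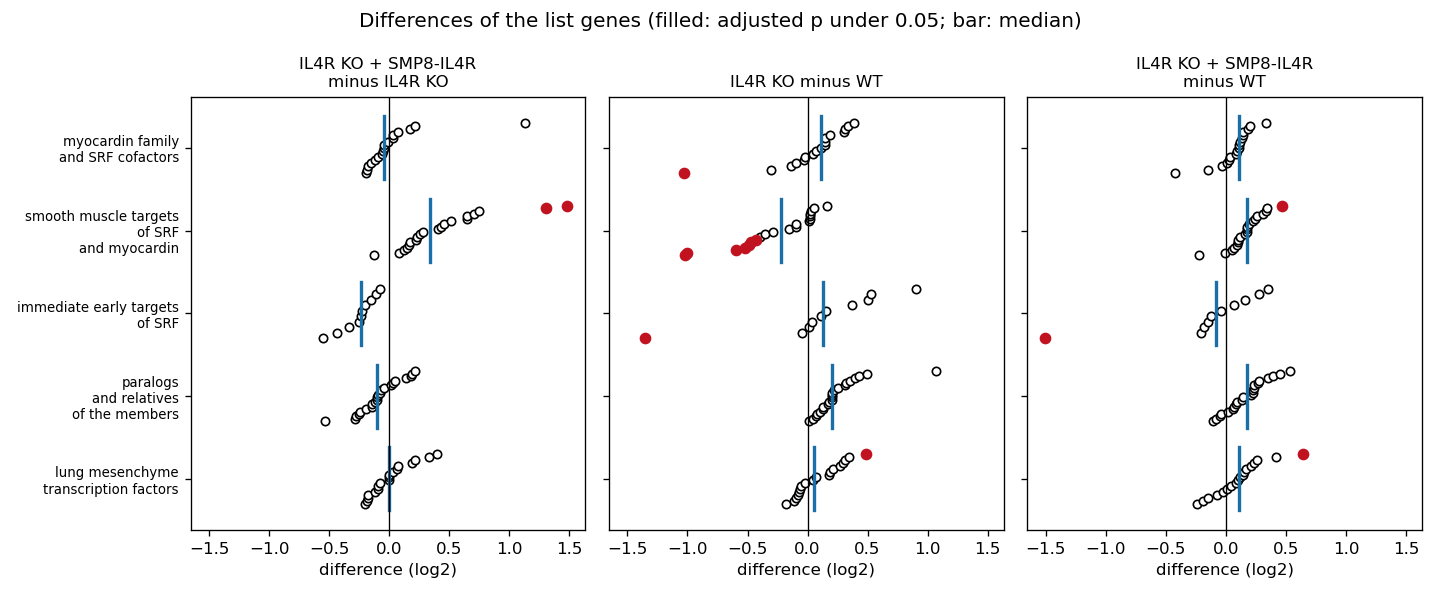
Difference in log2 value (horizontal axis) for each gene of 5 lists (rows) in the 3 comparisons (panels), each gene by its brightest probe set, with filled points for adjusted p under 0.05 and a bar at the list's median. The smooth muscle targets lie mainly to the right in IL4R KO + SMP8-IL4R minus IL4R KO and to the left in IL4R KO minus WT, while Myocd is the only filled point among the myocardin family and SRF cofactors.

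Other cofactors of Srf gave no call. Of 17 genes of the myocardin family and the cofactors of Srf, Myocd fell in IL4R KO minus WT and no other passed in any comparison. The relatives Mrtfa and Mrtfb, which carry actin signals to Srf and were named for that role after their values were seen, differed by -0.05 and -0.04 in IL4R KO + SMP8-IL4R minus IL4R KO and by 0.18 and 0.15 in IL4R KO minus WT. Foxo4, a repressor of myocardin activity in smooth muscle, was at 9.39 and 9.38 in the transgenic pools, 9.55 and 9.53 in the knockout pools, and 9.22 and 9.17 in the WT pools. Its knockout pools were above all others, but IL4R KO minus WT, 0.34, did not pass (adjusted p = 0.0857). The LIM protein Fhl2 differed by -0.43 in IL4R KO + SMP8-IL4R minus WT (adjusted p = 0.138). The median of this list was -0.05, 0.11 and 0.11 in the 3 comparisons.

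Genes with a pattern like that of Myocd were sought among 19795 probe sets of other genes with a mean above the median, by the mean absolute difference of centred log2 values over the 6 arrays. The nearest was Rgs5, a regulator of G protein signalling found in pericytes and smooth muscle, at 0.0761. Next came the actin-binding Synpo2 at 0.0876, Fignl1 at 0.142, fibronectin, Fn1, at 0.149 and the ATP receptor P2rx1 at 0.157. Rgs5 was at 10.27 and 10.38 in the transgenic pools, 9.20 and 9.10 in the knockout pools, and 10.19 and 10.23 in the WT pools. These genes were picked for their likeness to Myocd, so their differences are a description. Likeness held for a probe set and not always for its gene. The 4 Rgs5 probe sets gave 0.70 to 1.17 in IL4R KO + SMP8-IL4R minus IL4R KO, whereas the 4 of Synpo2 ran from -0.28 to 1.31, and the other Fignl1 probe set gave -0.09. For Synpo2, whose call rests on its brightest probe set, the other 3 gave at most 0.07. The other P2rx1 probe set gave 0.62 in this comparison. A brighter Fn1 probe set gave 0.37 there. In IL4R KO + SMP8-IL4R minus WT that Fn1 probe set gave -0.29, with both transgenic pools below both WT pools.

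Mef2a and Mef2c, which share the MADS box with Srf and activate muscle genes, did not pass in any comparison by any of their 6 and 5 probe sets. The Mef2a probe set 1427185_at was at 11.66 and 11.66 in the transgenic pools, 11.65 and 11.55 in the knockout pools, and 11.52 and 11.54 in the WT pools. The transgenic pools lay above the WT pools here and by 5 of the 6 Mef2a probe sets in all. Over all probe sets, 54.7% did not overlap between these groups. Mef2a differed by -0.18 to 0.22 in IL4R KO + SMP8-IL4R minus IL4R KO, by 0.03 to 0.21 in IL4R KO minus WT and by 0.03 to 0.28 in IL4R KO + SMP8-IL4R minus WT.

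For Mef2c, probe set 1421027_a_at was at 8.95 and 9.04 in the transgenic pools, 8.74 and 8.93 in the knockout pools, and 8.66 and 8.74 in the WT pools. By all 5 Mef2c probe sets both transgenic pools lay above both WT pools, in a comparison where 54.7% of all probe sets did not overlap. The difference was 0.11 to 0.29 and did not pass (lowest adjusted p = 0.223). Mef2c is also active in B cells. Of the B and plasma cell list 5 of 6 markers were measured, none under the lower quartile, with summed signals of 12.8 and 13.1 in the transgenic pools, 13.1 and 12.8 in the knockout pools, and 11.4 and 11.5 in the WT pools. That sum is carried by the plasma cell gene Jchain, at 12.25 and 12.69 in the transgenic pools, 12.76 and 11.82 in the knockout pools, and 10.27 and 10.38 in the WT pools. The B cell gene Ms4a1 was at 9.03 and 8.89 in the transgenic pools, 8.33 and 9.61 in the knockout pools, and 8.33 and 8.53 in the WT pools. Its knockout and WT ranges overlapped, while both transgenic pools lay above both WT pools. The same held for Cd79b, which differed by 0.25 in IL4R KO + SMP8-IL4R minus WT. Cd79a was lowest in the WT pools and differed by 0.89 in IL4R KO minus WT and by 0.55 in IL4R KO + SMP8-IL4R minus WT. Ms4a1, Cd79a and Cd79b did not pass in any comparison. Pax5 lay between 6.34 and 6.52 in all pools. The part of B cells in the Mef2c values was not tested. Probe sets of a gene share its transcripts and are not separate observations.

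Klf4, the antagonist of myocardin, was at 11.80 and 11.80 in the transgenic pools, 12.19 and 11.47 in the knockout pools, and 12.13 and 12.06 in the WT pools by probe set 1417394_at. Both transgenic pools lay below both WT pools, and the knockout pools lay on either side of all others. Probe set 1417395_at gave 11.17 and 11.17 in the transgenic pools, 11.70 and 11.01 in the knockout pools, and 11.50 and 11.51 in the WT pools, with the same order. IL4R KO + SMP8-IL4R minus WT was -0.30 (interval -0.79 to 0.20, adjusted p = 0.541) and -0.34 (interval -0.82 to 0.14, adjusted p = 0.477). With knockout pool 1 left out, IL4R KO minus WT was -0.62 (adjusted p = 0.026) and -0.50 (adjusted p = 0.042), values that rest on knockout pool 2 alone with the spread of the other groups.

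Klf4 can be induced quickly, as immediate early genes are, and the mean level of these too differed between the knockout pools. The mean level of the 10 immediate early targets of Srf was 9.61 and 9.36 in the transgenic pools, 10.03 and 9.45 in the knockout pools, and 9.67 and 9.57 in the WT pools. Egr1, a growth-response factor, was at 10.66 and 10.41 in the transgenic pools, 11.37 and 10.57 in the knockout pools, and 10.61 and 10.32 in the WT pools. Not every gene of the list had this gap. In knockout pools 1 and 2, by their brightest probe sets, Egr2 was at 7.15 and 7.18 and Egr3 at 7.42 and 7.55. The pool that was high by the mean and by Egr1, knockout pool 1, is the one with liver transcripts and low Xist. The part of these in the Klf4 values was not tested. None of the 10 passed in IL4R KO + SMP8-IL4R minus IL4R KO, where the brightest probe set of each lay below 0 with a median of -0.23. Dimmer probe sets of Ccn1, a matrix-associated growth factor, gave 0.94 and 1.00 there against -0.24 for the brightest, and did not pass (adjusted p = 0.302 and 0.314). The dimmer Egr2 probe set gave 0.12. The median was 0.13 in IL4R KO minus WT and -0.08 in IL4R KO + SMP8-IL4R minus WT. Egr2, a zinc finger factor also induced in macrophages, fell by 1.35 in IL4R KO minus WT (adjusted p = 0.0233) and by 1.50 in IL4R KO + SMP8-IL4R minus WT (adjusted p = 0.0184). It was at 7.32 and 6.71 in the transgenic pools, 7.15 and 7.18 in the knockout pools, and 8.60 and 8.44 in the WT pools, so it was also low in the transgenic lungs. The 6 macrophage markers, none under the lower quartile, had summed signals of 13.1 and 12.9 in the transgenic pools, 13.2 and 13.1 in the knockout pools, and 13.6 and 13.7 in the WT pools. They did not move as one. Itgax and Mrc1 fell in both IL4R KO minus WT and IL4R KO + SMP8-IL4R minus WT, while Marco rose in both, by 0.50 and 1.02. The part of macrophages in the Egr2 values was not tested.

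Foxf1, a forkhead factor of lung mesenchyme and endothelium, had the same split between knockout pools. Probe set 1434939_at was at 12.12 and 12.13 in the transgenic pools, 12.58 and 12.11 in the knockout pools, and 12.07 and 12.05 in the WT pools. Probe set 1423013_at was at 10.18 and 10.13 in the transgenic pools, 10.79 and 10.32 in the knockout pools, and 10.15 and 10.23 in the WT pools. In both, knockout pool 1 was highest, above knockout pool 2 by 0.47 to 0.48. IL4R KO minus WT was 0.29 (adjusted p = 0.4) and 0.37 (adjusted p = 0.297). With knockout pool 2 left out these were 0.53 (adjusted p = 0.0306) and 0.60 (adjusted p = 0.0264), values that rest on knockout pool 1 alone, the array with liver transcripts, with the spread of the other groups. With knockout pool 1 left out neither passed. IL4R KO + SMP8-IL4R minus IL4R KO was -0.22 and -0.40 (adjusted p = 0.594 and 0.393). The 8 endothelial markers, all measured and none passing, had summed signals of 15.0 and 15.0 in the transgenic pools, 15.0 and 15.1 in the knockout pools, and 15.0 and 14.9 in the WT pools.

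Gata6, a zinc finger factor of smooth muscle, airway epithelium and heart, was at 10.17 and 10.25 in the transgenic pools, 10.04 and 10.38 in the knockout pools, and 10.01 and 9.97 in the WT pools by 1425464_at. Its 3 probe sets did not pass in any comparison and differed by -0.12 to 0.08 in IL4R KO + SMP8-IL4R minus IL4R KO and by -0.07 to 0.23 in IL4R KO minus WT. The WT pools were lowest by 1425464_at and by 1425463_at, while the groups overlapped by 1443081_at.

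Tbx4 and Tbx5 are T-box factors that act together in lung bud mesenchyme. Tbx4 was at 11.07 and 11.16 in the transgenic pools, 11.03 and 11.21 in the knockout pools, and 10.95 and 10.97 in the WT pools by 1456033_at. By 1426321_at it was at 9.46 and 9.57 in the transgenic pools, 9.51 and 9.75 in the knockout pools, and 9.39 and 9.56 in the WT pools. The WT pools were lowest by the brighter probe set, and groups overlapped by the other. For Tbx5, 1425694_at was at 8.53 and 8.59 in the transgenic pools, 8.74 and 8.80 in the knockout pools, and 8.31 and 8.59 in the WT pools. IL4R KO minus WT was 0.32 ± 0.11 (adjusted p = 0.214), the lowest adjusted p of that comparison among the 24 probe sets that are not of Myocd, and did not pass. The other Tbx5 probe set, 1425695_at, was at 9.26 and 9.48 in the transgenic pools, 9.44 and 9.31 in the knockout pools, and 9.21 and 9.21 in the WT pools. Tbx5 and Gata6 are also expressed in heart muscle, of whose 12 markers 5 rose in IL4R KO minus WT, and the part of heart muscle in their values was not tested.

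**Figure D4:**
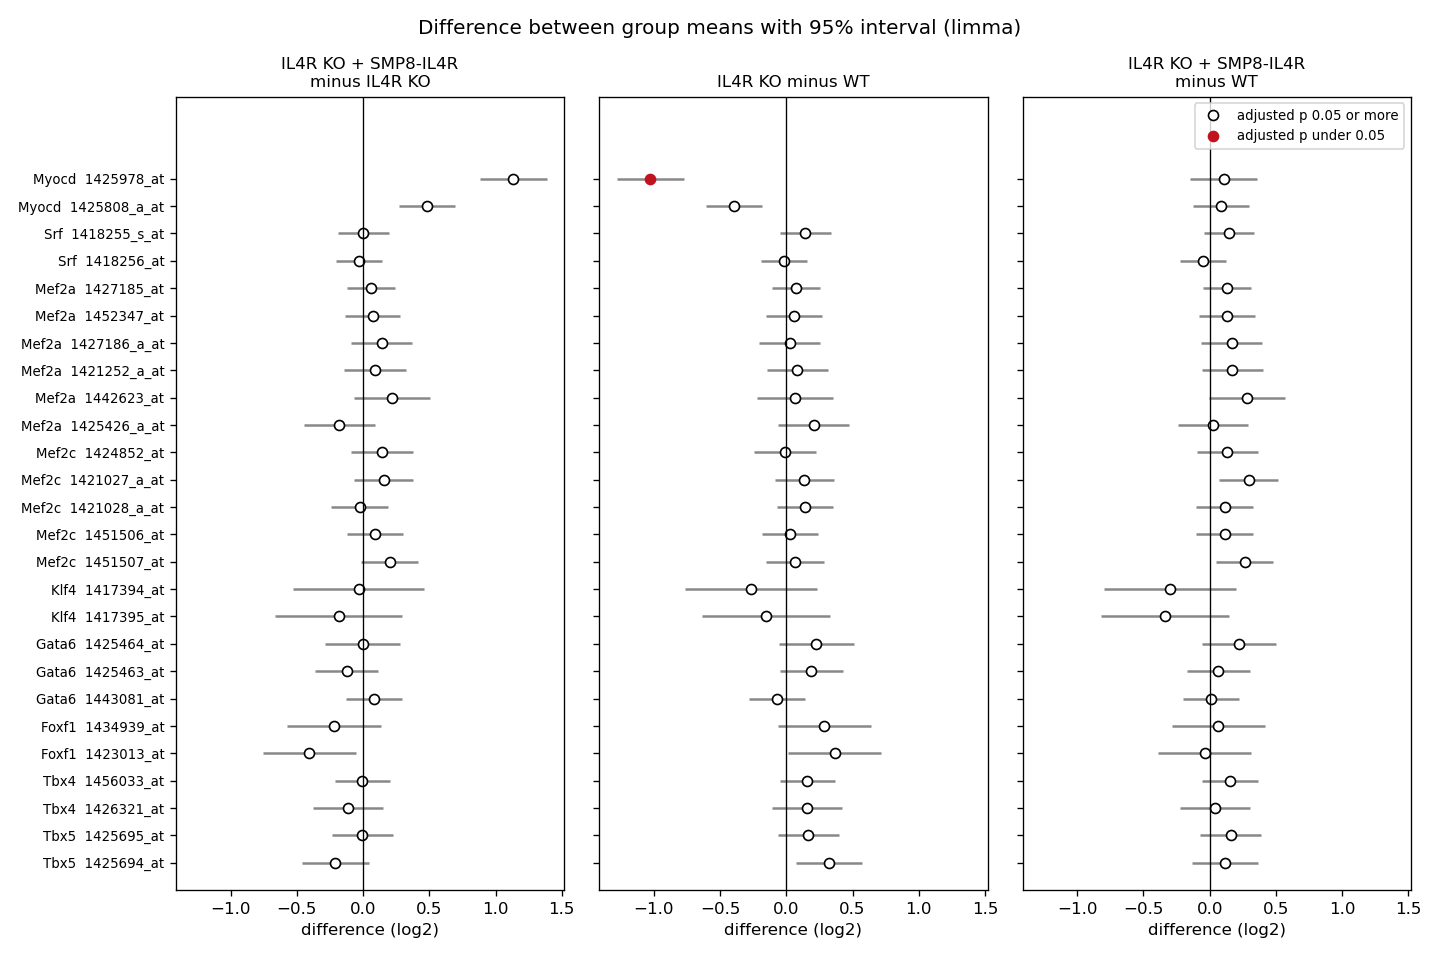
Difference in log2 value between group means (horizontal axis) with its 95% interval for each of the 26 probe sets (rows) in the 3 comparisons (panels), with a filled point for adjusted p under 0.05. The brighter Myocd probe set lies at 1.13 in IL4R KO + SMP8-IL4R minus IL4R KO and at -1.03 in IL4R KO minus WT, and the probe sets of the other genes lie between -0.40 and 0.37 in all 3 panels.

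Of 22 paralogs and relatives of the members, none passed in any comparison. By their brightest probe sets all 22 lay above 0 in IL4R KO minus WT, with a median of 0.20 beside 0.00 over all probe sets. Dimmer probe sets did not all follow. Those of Klf5 gave -0.24 and -0.23, and those of Klf13 gave 0.47 and -0.11. The largest difference of a brightest probe set there was 1.07, for Klf15, a Krüppel-like factor of smooth and cardiac muscle (adjusted p = 0.181). Klf15 was at 9.80 and 10.14 in the transgenic pools, 11.03 and 9.98 in the knockout pools, and 9.32 and 9.55 in the WT pools, again with knockout pool 1 apart. Tbx20, a heart factor, differed by 0.49 (adjusted p = 0.158). The median was -0.10 in IL4R KO + SMP8-IL4R minus IL4R KO and 0.17 in IL4R KO + SMP8-IL4R minus WT.

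Of 18 further transcription factors of lung mesenchyme, none passed in IL4R KO + SMP8-IL4R minus IL4R KO. The medians were 0.00, 0.06 and 0.11 in the 3 comparisons. Nfatc1, a calcium-dependent factor, rose by 0.49 in IL4R KO minus WT (adjusted p = 0.0363), and its other probe sets did not pass. Hey2, a Notch target in vascular smooth muscle, was at 5.96 and 6.01 in the transgenic pools, 5.72 and 5.59 in the knockout pools, and 5.27 and 5.42 in the WT pools. It rose by 0.64 in IL4R KO + SMP8-IL4R minus WT (adjusted p = 0.032), with the knockout pools between both other groups. Hey2 was dim, with every pool below the median of all values, 7.10, and WT pool 1 under the lower quartile, 5.30.

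Groups of 2 pools that do not overlap were common throughout the arrays. In IL4R KO + SMP8-IL4R minus IL4R KO 13 of the 26 probe sets did not overlap, or 50%, beside 42.1% of all probe sets. In IL4R KO minus WT it was 14, or 53.8%, beside 45.8%. In IL4R KO + SMP8-IL4R minus WT it was 20, or 76.9%, beside 54.7%, and 17 of those 20 were higher in the transgenic lungs. The 54.7% counts both directions, so the 17 has no share over all probe sets beside it. Of the 20, 5 are probe sets of Mef2a and 5 of Mef2c, which are not separate observations of a gene. At an unadjusted p under 0.05, limma counted 3, 4 and 2 of the 26 probe sets in the 3 comparisons, beside 5108, 7228 and 6910 of all 45037.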

How the data were processed

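RNA pools of whole lung were measured on 6 arrays. The log2 values used here were deposited by the authors and come from RMA, as the submitters' processing notes state. The version of RMA is not given in the sources used here. RMA compresses low signals, so differences of dim probe sets may be understated. With arrays there is no read depth, and the number of arrays sets the precision.

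The 64 array controls were left out. The platform annotation gave 34945 probe sets 1 gene. All 45037 remaining probe sets were fitted with limma 3.58.1 in R 4.3.3, with a mean per group and 1 spread shared by all 6 arrays (3 residual and 3.72 prior degrees of freedom), and p-values were adjusted over all of them (Benjamini-Hochberg). Passing means an adjusted p under 0.05. No filter was applied, so that every member was tested. P-values measure the spread between pools. List genes were read by their brightest probe set. Named were all members, of each list the genes that passed and some of the 4 with the lowest p per comparison, markers, and the 5 genes most like Myocd. The members and lists were chosen with earlier results of these data known. Same-numbered pools did not deviate together (correlations 0.0526, -0.0668 and -0.346), so numbers do not pair them. Alternatives covered filters, gene summaries, variance models, centring, a replicate block and left-out arrays. Background correction and normalization were not varied, since the deposited values start after them.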

Additional observations from a re-analysis of the deposited data

How the results depend on the processing

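The direction of the brighter Myocd probe set held in every alternative of IL4R KO + SMP8-IL4R minus IL4R KO (1.05 to 1.22, adjusted p 0.0155 to 0.421, passing in 3 of 14) and of IL4R KO minus WT (-1.15 to -0.91, adjusted p 0.00232 to 0.0734, passing in 14 of 15). The median of both Myocd probe sets gave 0.81 and -0.71. Member probe sets that passed in IL4R KO + SMP8-IL4R minus IL4R KO numbered 1 with the filter on the mean, with 1 probe set a gene and with a robust intensity trend, and 0 whichever single pool was left out. In IL4R KO minus WT leaving out single pools gave 0 to 4 and in IL4R KO + SMP8-IL4R minus WT 0 each time. Over all features, IL4R KO + SMP8-IL4R minus IL4R KO gave 12 calls with the filter on the mean, 12 with 1 probe set a gene, 1 with the median of a gene's probe sets, 31 with the robust trend, 0 with only the 4 arrays compared, 16 with the replicate block, 13 without both arrays that hold liver transcripts (an alternative chosen after seeing the data) and 0 to 96 without single pools, beside 7. IL4R KO minus WT gave 467, 1075 and 322 with the gene median, the robust trend and the 4 arrays, and 127 to 1401 without single pools, beside 710. IL4R KO + SMP8-IL4R minus WT gave 732 and 1064 with the robust trend and the 4 arrays, and 102 to 1064 without single pools, beside 470. With the replicate block the brighter Myocd probe set had an adjusted p of 0.103 and 0.0163 in the first 2 comparisons, and the block changed no call of a member. It left 3 smooth muscle targets lower in IL4R KO minus WT, beside 7, and none higher in IL4R KO + SMP8-IL4R minus WT, beside 1 (Actg2). Crossing the numbers of knockout and WT pools, also chosen after seeing the data, gave 475 calls and 1 member probe set. With the gene median, the list medians in the order of the 3 comparisons were 0.26, -0.14 and 0.12 for smooth muscle targets, and for cofactors -0.01 and 0.0635 in the last 2 and for paralogs 0.11 in the last. Without both arrays that hold liver transcripts they were 0.28 and -0.17 for smooth muscle targets in the first 2, -0.0433 and 0.13 for paralogs in the first and last, and -0.0802 and 0.24 for lung mesenchyme factors in the first 2. Leaving out single pools gave, in the 3 comparisons, 0.28 to 0.39, -0.24 to -0.17 and 0.16 to 0.18 for targets, -0.15 to -0.0433, 0.17 to 0.23 and 0.13 to 0.22 for paralogs, -0.0802 to 0.0799, -0.0565 to 0.18 and 0.0583 to 0.13 for lung mesenchyme factors, -0.0861 to 0.0072, 0.0759 to 0.12 and 0.0868 to 0.12 for cofactors, and -0.48 to -0.016, -0.0445 to 0.42 and -0.19 to 0.11 for immediate early genes. Of the other members, 4 of 1008 values under alternatives passed, all for Klf4 or Foxf1 without 1 knockout pool. No value that passed changed its sign. Of all member values under alternatives, 20 of 354, 18 of 380 and 10 of 354 changed sign, and these passed in neither setting. The cause of these changes was not tested. With 2 pools a group and values already summarised by RMA, differences near the spread between pools cannot be resolved.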
